A study of Mus musculus with 12 samples.

Results

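The genes encoding the proteasome were followed in livers of obese mice after a change in dietary protein. The members were all rows of the deposited count table whose symbol is Psm, a letter between a and g, a number and at most 1 further letter, which gave 49 genes of 56980. They were grouped by symbol as alpha subunits (Psma, 8 genes), beta subunits (Psmb, 11), ATPases (Psmc, 6), non-ATPase genes (Psmd, 14), activators (Psme, 5), the inhibitor Psmf1 and the assembly chaperones (Psmg, 4). The livers came from male B6.Cg-Lepob/J (ob/ob) mice, which carry the Lep-/- genotype in every group, so that both diets were tested in animals that lack leptin and become obese, without lean controls in the comparison. A set of 6 mice ate a low protein diet (LPD, 5% of energy as protein) and the other 6 ate a standard protein diet (SPD, 25% of energy as protein), for 3 weeks from 8 weeks of age with free access to food, and the livers were taken at 11 weeks and profiled by bulk RNA sequencing.

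The proteasome is the cell's main protease for proteins tagged with ubiquitin. Its core, the 20S particle, is a barrel of outer rings of alpha subunits and inner rings of beta subunits, and the beta subunits Psmb5, Psmb6 and Psmb7 carry the active sites. The 19S particle caps the barrel: its ATPases unfold the substrate, and its non-ATPase subunits bind ubiquitin, remove it and hold the cap together. Interferon induces Psmb8, Psmb9 and Psmb10, which replace the constitutive catalytic subunits in the immunoproteasome and favour peptides for MHC class I. In liver, proteasomal turnover returns amino acids from protein beside autophagy.

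Of the 49 genes, 47 passed the filter on low counts and were tested together with all 13768 genes that passed. Psmb11, the thymus-specific catalytic subunit, had 0 counts in all 12 libraries, which allows up to 0.121 to 0.158 CPM (the depth-normalised read count, on scaled library totals) per library for counting error alone, and Psme2b had 40 counts over the LPD libraries and 22 over the SPD libraries. The libraries held 19374676 to 23710930 counts. Albumin (Alb) averaged 57232 ± 9437 CPM on LPD and 65535 ± 3993 CPM on SPD (SD, n = 6 each). Of 6 hepatocyte markers, 4 were called higher on LPD (against 20.7% of all genes), while Alb and Ttr were not called by edgeR (adjusted p = 0.174 and 0.143). The 6 markers summed to 75683 ± 10344.5 CPM on LPD and 77639 ± 3306 CPM on SPD. The title and library code of LPD replicate 1 place it on LPD while its treatment label names the 25% diet. It was kept in LPD, and without it the same 14 members were called, beside 39.3% of all genes. Counted as SPD instead, it left 11 of them called, beside 32.2% of all genes. In bulk tissue, fewer cells of a type and less RNA per cell cannot be told apart.

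Most proteasome mRNAs stood at nearly the same level on both diets, and a few moved away from the rest. By edgeR's quasi-likelihood test with Benjamini-Hochberg adjustment over all genes, 14 of the 47 tested members were called at an adjusted p under 0.05, which is 29.8% of them, against 39.9% of all genes tested. Of these, 3 were higher on LPD (6.38%, against 20.7% of all genes) and 11 were lower (23.4%, against 19.2%). The falls with the smallest adjusted p were in Psmd8, a subunit of the 19S lid, and Psmb5, the chymotrypsin-like catalytic subunit, and the inducible subunits Psmb8 and Psmb9 also fell. Psmd9, Psmd3 and Psmc2 rose. The count of lower members was 7 when LPD replicate 4, LPD replicate 6 or SPD replicate 1 was left out, and 5 with only the 4 libraries per diet whose codes begin with SP1 (SPD) or LP4 (LPD), a division whose meaning the labels do not give.

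**Figure D1:**
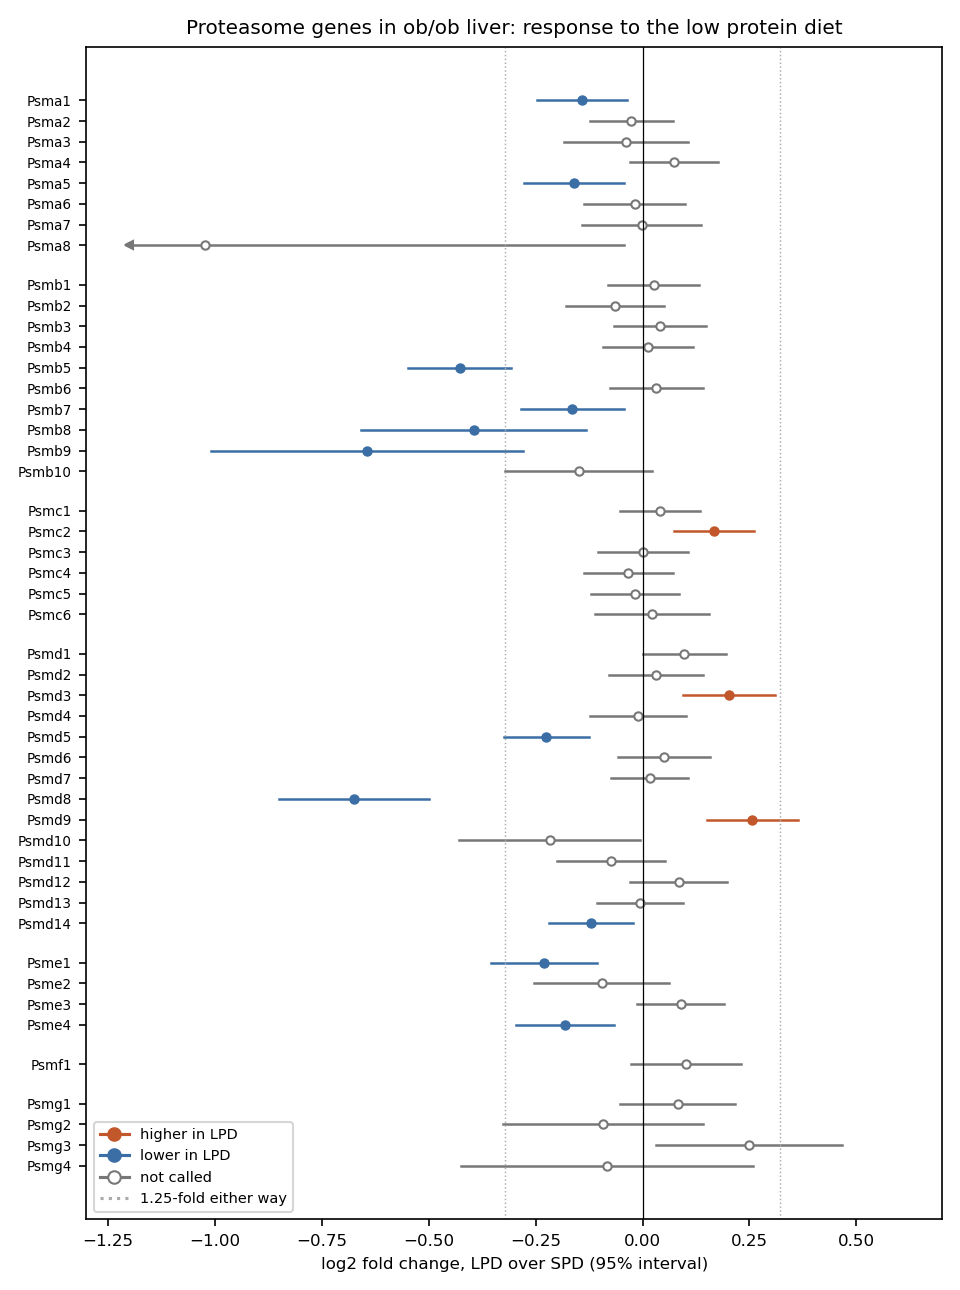
Log2 fold change, LPD over SPD, of each of the 47 tested proteasome genes, grouped by family, with its 95% interval (points: fitted values; filled red, higher; filled blue, lower; open grey, not called; dotted lines: 1.25-fold either way). Most intervals lie near 0 and within the dotted lines, while Psmd8, Psmb5, Psmb8 and Psmb9 lie to the left, as does the low-count gene Psma8, whose interval runs past the axis.

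The size of the changes was small for the family as a whole. The median log2 fold change over the 47 members was -0.017, and over all genes tested it was -0.00059. The median absolute log2 fold change was 0.084 over the members and 0.22 over all genes. In 28 members (59.6%) the absolute log2 fold change was under 0.1, against 24.8% of all genes, and in 3 members (6.38%) it was over 0.5, against 18.6%. The estimates of the members were also more precise, with a median SE of 0.053 on the log2 scale and 0.10 over all genes. For 35 members (74.5%, against 28.5% of all genes) the 95% interval lay wholly within 1.25-fold either way, and 28 of the 33 members that were not called were among these. The summed level of all 49 members was 3372 ± 82.4 CPM on LPD and 3508 ± 110.3 CPM on SPD (SD, n = 6 each), with ranges of 3262 to 3489.7 CPM on LPD and 3369 to 3688 CPM on SPD that overlap. Psmd8, with means of 147 CPM on LPD and 234 CPM on SPD, is part of these sums.

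**Figure D2:**
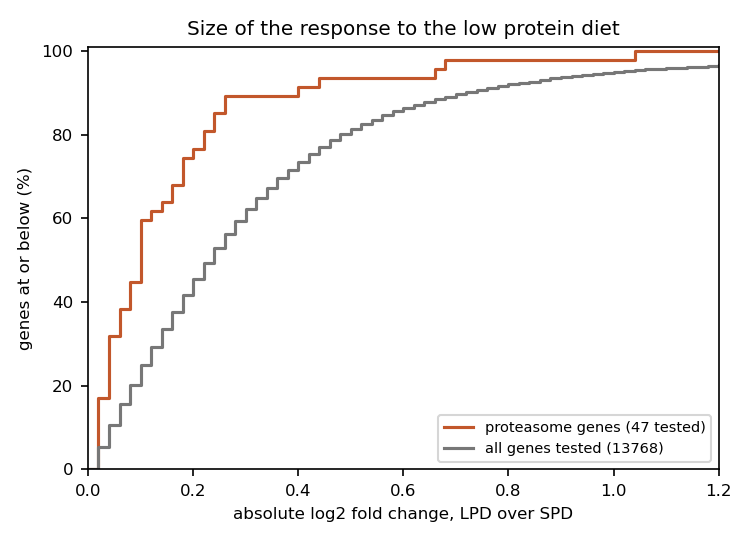
Share of genes (vertical axis, %) whose absolute log2 fold change, LPD over SPD, is at or below the value on the horizontal axis, for the 47 tested proteasome genes (red) and all 13768 genes tested (grey). The red curve lies above the grey one over the plotted range, with 59.6% of members and 24.8% of all genes under 0.1.

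Promoter sequences of 5 members are shown because these genes carry the falls with the smallest adjusted p (Psmd8, Psmb5), the falls of neighbouring inducible subunits (Psmb9, Psmb8) and the rise with the smallest adjusted p (Psmd9), and they were chosen after their values were seen. Each runs from 250 bases before to 50 bases after the RefSeq gene start (GRCm38.p6), 5′ to 3′ on the gene's strand. The Psmd8 window is chr7:29180624-29180923 on the minus strand, that of Psmb5 is chr14:54617946-54618245 on the minus strand, that of Psmb9 is chr17:34187281-34187580 on the minus strand, that of Psmb8 is chr17:34197945-34198244 on the plus strand and that of Psmd9 is chr5:123227940-123228239 on the plus strand. Capitals mark matches, on either strand, to TGACNNNGC (the core of the antioxidant response element, bound by NRF1 and NRF2), CCAAT (the NF-Y box), GAAA, any 2 bases and GAAA (the core of the interferon-stimulated element) or TTCNNNGAA (the STAT site).
Psmd8: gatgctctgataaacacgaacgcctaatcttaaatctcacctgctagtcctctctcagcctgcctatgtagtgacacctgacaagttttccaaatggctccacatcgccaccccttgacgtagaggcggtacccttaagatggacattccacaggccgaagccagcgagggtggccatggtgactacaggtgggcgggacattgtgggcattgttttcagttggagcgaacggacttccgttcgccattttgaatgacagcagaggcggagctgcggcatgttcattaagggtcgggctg
Psmb5: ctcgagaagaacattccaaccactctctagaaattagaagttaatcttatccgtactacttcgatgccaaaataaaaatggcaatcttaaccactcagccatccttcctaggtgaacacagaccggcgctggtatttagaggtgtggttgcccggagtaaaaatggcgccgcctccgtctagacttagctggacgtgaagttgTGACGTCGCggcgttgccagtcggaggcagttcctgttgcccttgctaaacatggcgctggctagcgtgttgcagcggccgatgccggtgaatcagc
Psmb9: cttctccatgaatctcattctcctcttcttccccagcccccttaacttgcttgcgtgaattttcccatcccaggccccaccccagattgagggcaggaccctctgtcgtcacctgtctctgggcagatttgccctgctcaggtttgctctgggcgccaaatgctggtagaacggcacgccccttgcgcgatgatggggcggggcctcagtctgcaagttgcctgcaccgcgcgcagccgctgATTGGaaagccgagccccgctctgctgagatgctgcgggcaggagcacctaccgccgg
Psmb8: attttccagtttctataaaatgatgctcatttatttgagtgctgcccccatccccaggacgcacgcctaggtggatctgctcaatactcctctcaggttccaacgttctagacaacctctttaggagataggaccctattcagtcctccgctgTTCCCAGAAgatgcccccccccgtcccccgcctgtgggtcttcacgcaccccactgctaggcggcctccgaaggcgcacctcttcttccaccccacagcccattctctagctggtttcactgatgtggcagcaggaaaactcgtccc
Psmd9: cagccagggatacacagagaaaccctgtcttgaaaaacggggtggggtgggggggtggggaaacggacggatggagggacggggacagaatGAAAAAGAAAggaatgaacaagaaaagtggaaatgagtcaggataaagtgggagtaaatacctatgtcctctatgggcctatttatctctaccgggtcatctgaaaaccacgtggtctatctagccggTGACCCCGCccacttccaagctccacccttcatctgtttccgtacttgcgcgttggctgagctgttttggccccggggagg
The Psmd8 window holds no match to these 4 motifs, that of Psmb5 holds TGACGTCGC, that of Psmb9 the reverse complement of the CCAAT box, that of Psmb8 a TTCNNNGAA match, and that of Psmd9 both TGACCCCGC and GAAAAAGAAA. None of the matches overlap. For all 5 the gene in GENCODE M21 extends upstream of this RefSeq start, and for Psmb9, Psmb8 and Psmd9 it reaches past the window. Of the 41 members with a window in the table, TGACNNNGC occurred in 6 (14.6%, against 14% of the 27025 gene windows), in Psmb5, Psmb6, Psmc6, Psmd12, Psmd9 and Psme4. CCAAT occurred in 14 members (34.1%, against 41.1%), the interferon-stimulated core in 5 (12.2%, against 3.99%) and TTCNNNGAA in 3 (7.32%, against 9.55%). The 6 genes with TGACNNNGC did not move together: Psmb5 and Psme4 were called lower, Psmd9 was called higher, and Psmb6, Psmc6 and Psmd12 had log2 fold changes of 0.032, 0.022 and 0.084 that were not called.

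Per transcript length, the core and cap genes were within a few-fold of each other, and the inducible genes were far below the subunits they replace. Levels are given here in TPM, the level scaled by the deposited gene length and by the library, as means over all 12 livers. Psmd8 stood highest at 229.9 TPM, followed by Psmb4 at 218 and Psmb6 at 207, and the SDs over livers of these 3 genes overlap. By diet, Psmd8 was at 180.1 TPM on LPD, below Psmb4 (221), Psmb6 (212) and Psma6 (186), and at 279.8 TPM on SPD, above all other members. The 14 constitutive genes of the core ran between Psma3 at 44.8 TPM and Psmb4, a 4.86-fold span with a median of 158 TPM. The ATPases lay between Psmc6 at 53.5 TPM and Psmc1 at 146 TPM. Psmb10, Psmb8 and Psmb9 reached 25.2, 18.96 and 11.4 TPM, close to the 10.7 to 27.9 TPM of the Psmg assembly chaperones. Among the activators, Psme1 and Psme2, the subunits of the PA28 cap that interferon induces, had 143 and 97.1 TPM, while the nuclear PA28 subunit Psme3 had 45.7 TPM and Psme4 had 33.1 TPM. The tissue-restricted genes were lowest, with 1.22 TPM for the testis subunit Psma8 and 0 for Psmb11. The deposited length of a gene equalled its longest transcript in GENCODE M21 for 27 of the 49 members, so the per-length order holds for these lengths alone.

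**Figure D3:**
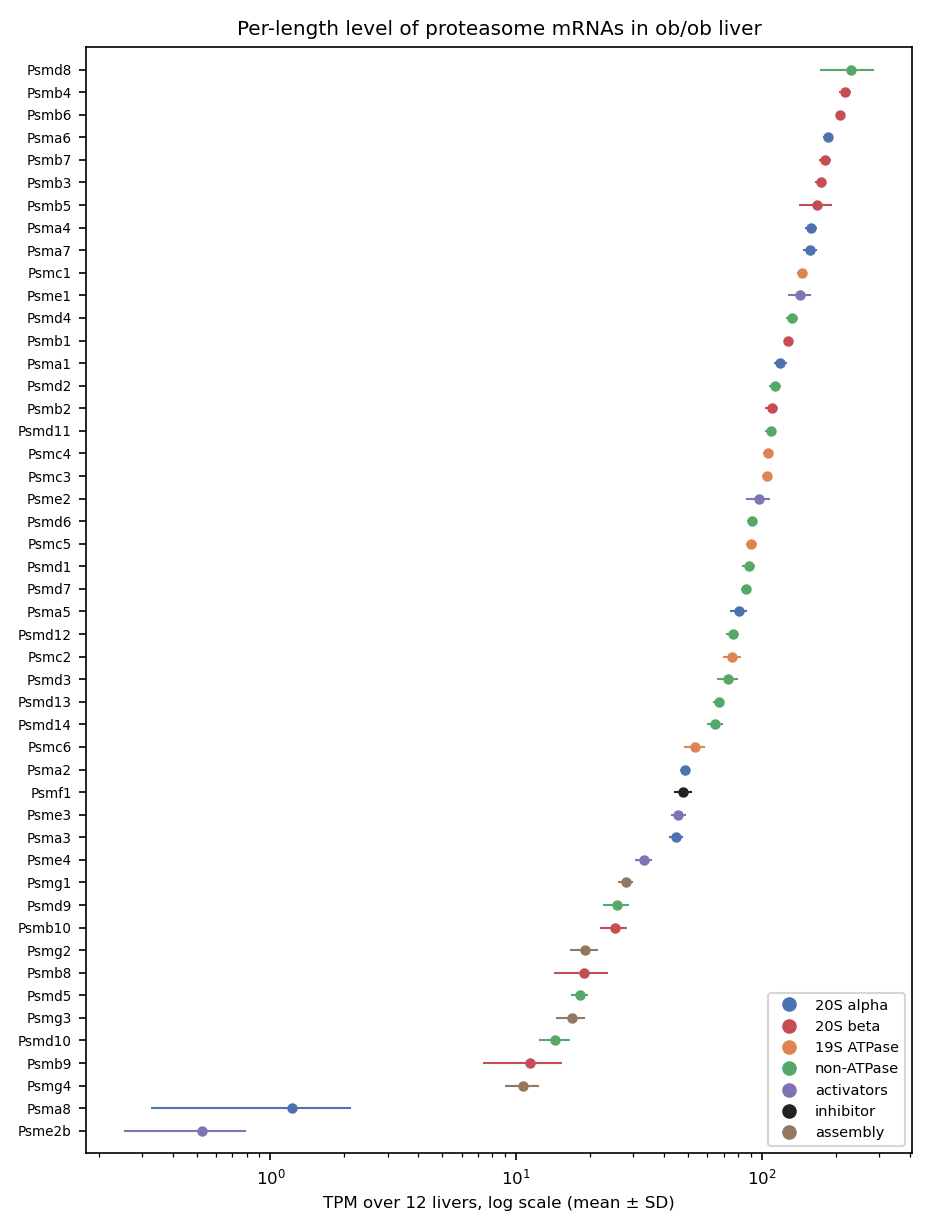
Level per transcript length (TPM, log scale) of the 48 proteasome genes with counts, as mean ± SD over all 12 livers, ordered by level and coloured by family. Core and cap genes fill the upper part, the inducible Psmb8, Psmb9 and Psmb10 lie with the assembly chaperones, and Psma8 and Psme2b lie at the bottom.

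The alpha ring was nearly flat. Of the 8 Psma genes tested, 2 were called lower (against 19.2% of all genes) and none higher, with a median log2 fold change of -0.032. Psma1 ranged over 71.3 to 78.2 CPM (median 73.8) on LPD and 74.6 to 86.8 CPM (median 83.0) on SPD, a log2 fold change of -0.14 ± 0.049 (SE, adjusted p = 0.0317). Psma5 ranged over 47.9 to 55.3 CPM (median 51.7) on LPD and 53.9 to 64.5 CPM (median 57.0) on SPD, a log2 fold change of -0.16 ± 0.055 (adjusted p = 0.0298). For both genes the diets overlap, and SPD replicate 1 was the highest library for Psma5. The Psma1 call was lost, at adjusted p values up to 0.0751, without LPD replicate 3, 4 or 6 or SPD replicate 1, 2, 5 or 6, and the Psma5 call was lost, at values up to 0.0761, without LPD replicate 4, 5 or 6 or SPD replicate 1. The other constitutive alpha genes lay between -0.038 (Psma3) and 0.073 (Psma4) on the log2 scale. Psma8 had 294 counts over all livers, ranges of 0.387 to 1.65 CPM (median 0.538) on LPD and 0.437 to 3.27 CPM (median 1.39) on SPD, and an interval of -2.002 to -0.044 (adjusted p = 0.0895). Its CV over livers was 65.7% on LPD and 66.9% on SPD.

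Of the 10 Psmb genes tested, 4 were called lower (against 19.2% of all genes) and none higher, with a median log2 fold change of -0.11. Of the constitutive catalytic subunits, Psmb5 fell clearly, Psmb7 fell slightly and Psmb6 did not pass the test. Psmb5 (ENSMUSG00000022193, chr14:54614119-54618022, minus strand) ranged over 62.4 to 77.9 CPM (median 70.6) on LPD and 89.3 to 102 CPM (median 93.8) on SPD. Every LPD liver was below every SPD liver. The means were 70.2 ± 5.25 CPM on LPD and 94.4 ± 4.69 CPM on SPD (SD, n = 6 each), a log2 fold change of -0.43 ± 0.057 (adjusted p = 3.49e-05). Psmb6, the caspase-like subunit, ranged over 84.3 to 97.1 CPM (median 92.5) on LPD and 84.4 to 93.4 CPM (median 89.8) on SPD. The diets overlap almost completely, and its log2 fold change of 0.032 ± 0.051 was not called (adjusted p = 0.657, 95% interval -0.077 to 0.14). Psmb7, the trypsin-like subunit, ranged over 97.7 to 118 CPM (median 109) on LPD and 114 to 134 CPM (median 121) on SPD, with overlap and a log2 fold change of -0.16 ± 0.056 (adjusted p = 0.0300). The Psmb7 call was lost, at adjusted p values up to 0.0753, without LPD replicate 3, 4 or 6 or SPD replicate 1, 2 or 5, and with LPD replicate 1 counted as SPD it was 0.0924. The structural beta genes Psmb1, Psmb2, Psmb3 and Psmb4, which carry no active site in their ring positions, lay between -0.065 (Psmb2) and 0.041 (Psmb3) and were not called. The summed level of the 14 constitutive core genes was 1219 ± 51.2 CPM on LPD and 1264 ± 56.2 CPM on SPD.

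**Figure D4:**
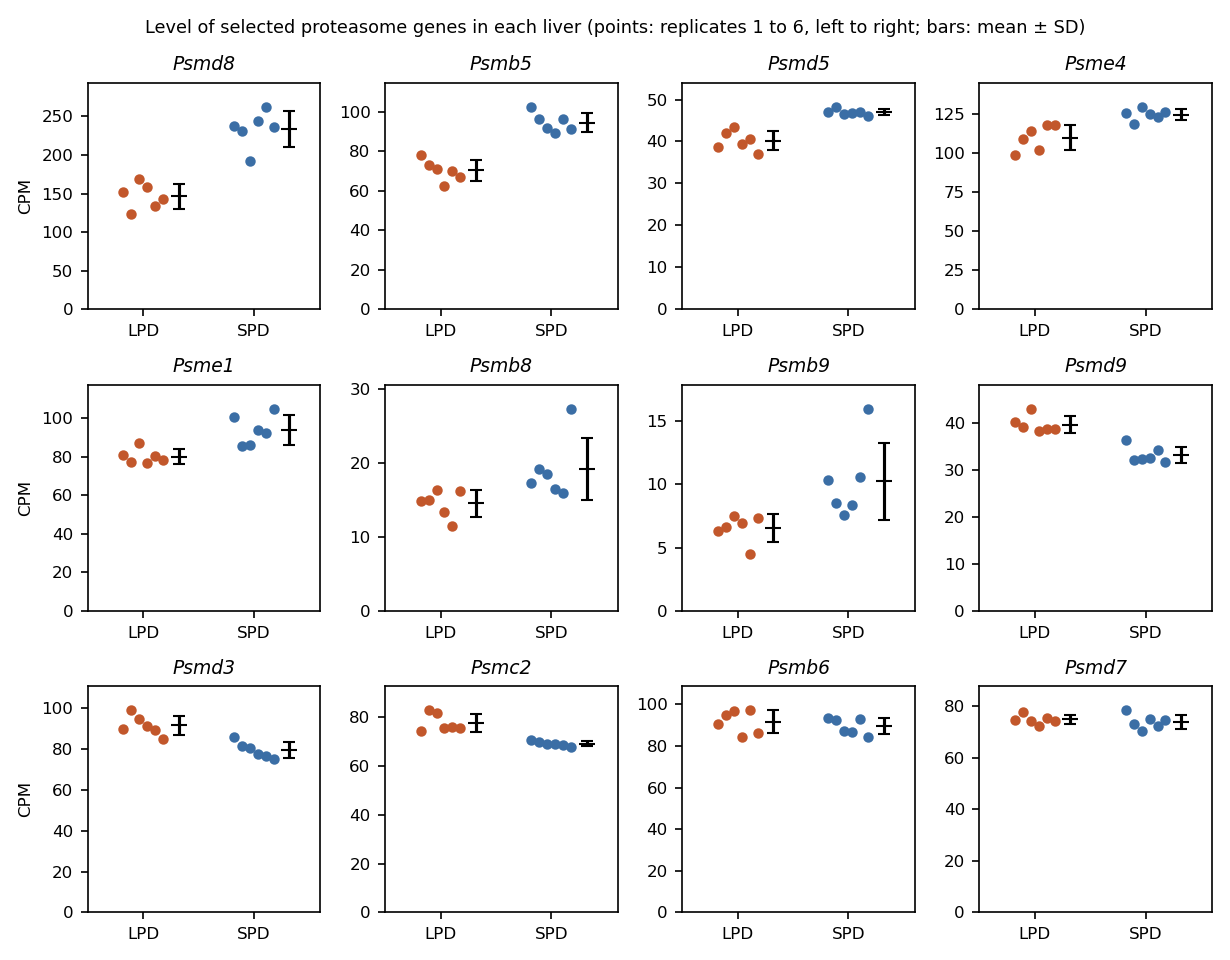
Level (CPM, from 0) in each liver of 12 proteasome genes, LPD in red on the left and SPD in blue on the right of each panel, with mean ± SD (n = 6 each). Psmd8, Psmb5, Psmd5, Psme4 and Psmb9 are lower in every LPD liver than in any SPD liver, Psmd9 and Psmc2 are higher in every LPD liver, Psmb8, Psme1 and Psmd3 differ with overlap, and Psmb6 and Psmd7 overlap and were not called.

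The inducible catalytic subunits were low on both diets, and Psmb9 and Psmb8 fell further on LPD. Psmb9 (ENSMUSG00000096727, chr17:34181987-34187764, minus strand) ranged over 4.46 to 7.48 CPM (median 6.80) on LPD and 7.60 to 16.0 CPM (median 9.44) on SPD. No LPD liver reached the lowest SPD liver, and SPD replicate 6 stood apart at the top. The log2 fold change was -0.64 ± 0.17 (adjusted p = 0.00745). Psmb8 (ENSMUSG00000024338, chr17:34197721-34201454, plus strand), which lies 9956 bases from Psmb9, ranged over 11.5 to 16.4 CPM (median 14.9) on LPD and 16.0 to 27.3 CPM (median 17.9) on SPD. The ranges overlap slightly, with LPD replicates 3 and 6 above SPD replicate 5, and SPD replicate 6 was again the highest. Its log2 fold change was -0.40 ± 0.12 (adjusted p = 0.0192). Psmb10, on another chromosome, ranged over 13.97 to 19.4 CPM (median 17.1) on LPD and 17.6 to 22.0 CPM (median 18.004) on SPD, with a log2 fold change of -0.15 ± 0.081 that was not called (adjusted p = 0.156). The summed level of these 3 genes was 38.2 ± 3.23 CPM on LPD and 48.3 ± 8.42 CPM on SPD.

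Each inducible gene was also set against the constitutive gene it replaces, within the same liver. The Psmb9 pair passed the test and the other 2 pairs did not. LPD livers held 4.59 to 8.56 Psmb9 counts per 100 counts of Psmb6, and SPD livers held 8.71 to 18.9. No LPD liver overlapped the SPD livers. The log2 ratio averaged -3.82 ± 0.32 on LPD and -3.17 ± 0.41 on SPD (SD, n = 6 each), a difference of -0.65 with a 95% interval of -1.18 to -0.24, by an exact two-sided permutation test over 924 labelings (p = 0.00216, the smallest it can give, and 0.00649 adjusted over the 3 ratios). The Psmb8 to Psmb5 ratio averaged -2.28 ± 0.20 on LPD and -2.33 ± 0.31 on SPD, a difference of 0.047 with an interval of -0.30 to 0.35 (exact permutation p = 0.768, adjusted 0.916). Psmb8 and Psmb5, with log2 fold changes of -0.40 and -0.43, both fell. The Psmb10 to Psmb7 ratio averaged -2.67 ± 0.21 on LPD and -2.69 ± 0.20 on SPD, a difference of 0.014 with an interval of -0.25 to 0.27 (exact permutation p = 0.916, adjusted 0.916).

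**Figure D5:**
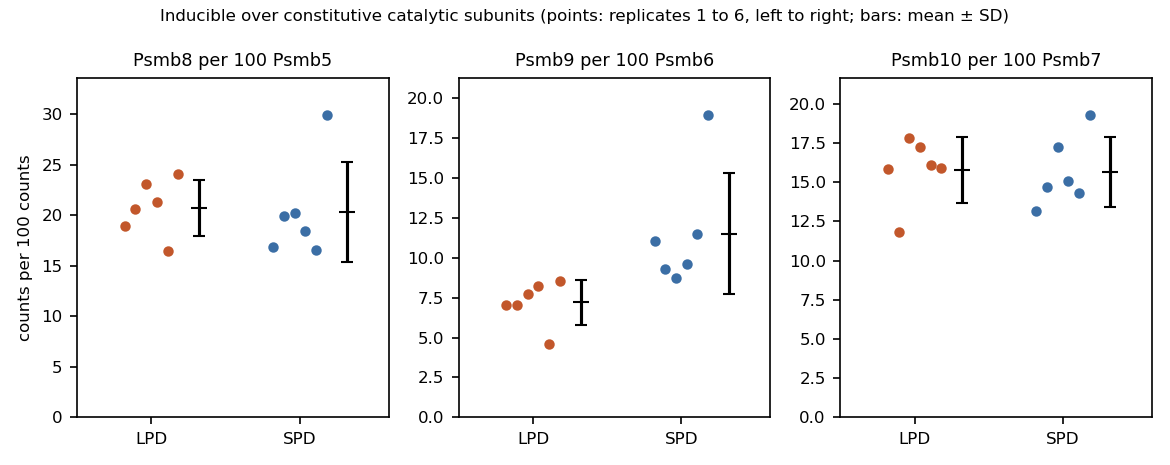
Counts of each inducible catalytic subunit per 100 counts of the constitutive subunit it replaces, in each liver, LPD in red on the left and SPD in blue on the right of each panel, with mean ± SD (n = 6 each). The Psmb9 panel separates the diets, with 4.59 to 8.56 on LPD and 8.71 to 18.9 on SPD, and SPD replicate 6 is the highest point of every panel.

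SPD replicate 6 was the highest of the 12 livers for Psmb8, Psmb9, Psmb10, Psme1 and Psme2, at 27.3, 16.0, 22.0, 105.1 and 64.1 CPM, and for the peptide transporter Tap1 at 23.9 CPM. Its summed Kupffer cell and macrophage markers, 896 CPM, were the highest of all livers too. Cd5l gave 455 CPM of that sum, while Clec4f, at 137 CPM in SPD replicate 6, was higher in LPD replicate 4 (158 CPM). The sums of these markers ran over 488 to 704 CPM on LPD and 597 to 896 CPM on SPD. Of the 6 markers, 2 were called lower (Cd68 and Cd5l, against 19.2% of all genes). The others were not called, with log2 fold changes between -0.19 (Csf1r) and 0.020 (Clec4f). The T, NK and B cell markers summed to 12.3 to 21.1 CPM on LPD and 18.9 to 29.7 CPM on SPD, with SPD replicate 6 the highest. By edgeR, 0 of 4 tested markers were called (against 39.9% of all genes). Most of each sum was Ptprc, at 14.5 ± 3.00 CPM on LPD and 18.4 ± 3.43 CPM on SPD (log2 fold change -0.35). Cd79a, Nkg7 and Cd4 went the other way, with log2 fold changes of 0.28, 0.33 and 0.32. Cd3e, Cd3d, Cd8a and Ms4a1 had 56 to 120 counts each over all livers and were not tested. The dendritic cell and antigen presentation markers summed to 158 to 387 CPM on LPD and 210.1 to 414 CPM on SPD, with 0 of 4 called (against 39.9% of all genes). LPD replicate 5 was the lowest liver for Psmb8 and Psmb9 and had the lowest macrophage sum, 488 CPM. Other livers were mixed. LPD replicate 4, with the highest macrophage sum on LPD (704 CPM), had Psmb8 below (13.3 CPM) and Psmb9 above (6.94 CPM) the LPD medians. SPD replicate 5, with the lowest macrophage sum on SPD (597 CPM), had the lowest SPD Psmb8 (15.98 CPM). Its Psmb9, at 10.6 CPM, was above the SPD median. LPD replicate 2 had the lowest T, NK and B cell sum (12.3 CPM) and dendritic cell sum (158 CPM). Its Psmb8 (15.03 CPM) was above the LPD median. Without SPD replicate 6, Psmb9 had a log2 fold change of -0.47 (adjusted p = 0.0126), Psmb8 -0.27 (adjusted p = 0.0319) and the log2 ratio Psmb9 to Psmb6 a difference of -0.50 (exact permutation p = 0.00433). With LPD replicates 2 and 5 left out together, the Psmb8 call was lost (adjusted p = 0.0686), as it was when LPD replicate 1 was moved to SPD (adjusted p = 0.0638). With the SP1 and LP4 libraries alone, Psmb9 had -0.34 (adjusted p = 0.0569). The part of immune cell content in these changes was not tested.

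In the ATPase ring, Psmc2 rose and the other 5 genes did not pass the test, and the median log2 fold change of the 6 was 0.011. Psmc2, the ATPase Rpt1 (ENSMUSG00000028932, chr5:21785283-21803787, plus strand), ranged over 74.2 to 82.8 CPM (median 75.7) on LPD and 67.8 to 70.6 CPM (median 68.9) on SPD. Every LPD liver was above every SPD liver. The means were 77.6 ± 3.62 CPM on LPD and 69.1 ± 0.950 CPM on SPD, a log2 fold change of 0.17 ± 0.044 (adjusted p = 0.00689). With the SP1 and LP4 libraries alone the log2 fold change was 0.175 (adjusted p = 0.0534). The other ATPase genes lay between -0.033 (Psmc4) and 0.041 (Psmc1) on the log2 scale and were not called, each with an interval within 1.25-fold either way. The summed level of the 6 genes was 523 ± 10.6 CPM on LPD and 513 ± 17.1 CPM on SPD.

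Among the non-ATPase subunits of the 19S cap, Psmd8 fell most and Psmd3 rose. Of all 14 Psmd genes, 2 were called higher and 3 lower (against 20.7% and 19.2% of all genes), with a median log2 fold change of 0.0053. Psmd8, the lid subunit Rpn12 (ENSMUSG00000030591, chr7:29174188-29180701, minus strand), ranged over 124 to 168 CPM (median 148) on LPD and 192 to 262 CPM (median 238) on SPD. The diets did not overlap, with LPD replicate 3 the highest of the LPD livers and SPD replicate 3 the lowest of the SPD livers. The means were 147 ± 16.2 CPM on LPD and 234 ± 23.1 CPM on SPD, a log2 fold change of -0.67 ± 0.082 (adjusted p = 1.66e-05), the largest among the called members. Psmd3, the lid subunit Rpn3 (ENSMUSG00000017221, chr11:98682554-98695979, plus strand), ranged over 85.1 to 99.0 CPM (median 90.5) on LPD and 75.2 to 86.1 CPM (median 79.0) on SPD. The ranges overlap only through LPD replicate 6 and SPD replicate 1, and the log2 fold change was 0.20 ± 0.050 (adjusted p = 0.00506). Psmd14, the deubiquitinase Rpn11, ranged over 49.8 to 55.5 CPM (median 51.9) on LPD and 54.7 to 61.2 CPM (median 55.9) on SPD, with overlap and a log2 fold change of -0.12 ± 0.046 (adjusted p = 0.0485). That call was lost without any 1 library other than LPD replicate 1, at adjusted p values up to 0.113.

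The scaffold subunits Psmd1 and Psmd2, the ubiquitin receptor Psmd4 and the lid subunits Psmd6, Psmd7, Psmd11, Psmd12 and Psmd13 were not called, with log2 fold changes between -0.074 (Psmd11) and 0.097 (Psmd1). Psmd7, the partner of Psmd14 in the deubiquitinating module, ranged over 72.4 to 77.6 CPM (median 74.4) on LPD and 70.5 to 78.3 CPM (median 73.9) on SPD, with an interval of -0.074 to 0.11. The 11 genes of the mature cap summed to 1116 ± 20.2 CPM on LPD and 1180 ± 50.02 CPM on SPD, and ranges of 1095 to 1148 CPM on LPD and 1114 to 1226 CPM on SPD overlap. Psmd8 is among them, and its means, 147 CPM on LPD and 234 CPM on SPD, differ by more than these sums do.

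Psmd5, Psmd9 and Psmd10 carry Psmd names but are chaperones that help assemble the base of the cap and leave before it is complete. Psmd9 rose and Psmd5 fell. Psmd9 (ENSMUSG00000029440, chr5:123169413-123250131, plus strand) ranged over 38.2 to 43.0 CPM (median 38.9) on LPD and 31.7 to 36.2 CPM (median 32.4) on SPD. Every LPD liver was above every SPD liver, and the log2 fold change was 0.26 ± 0.050 (adjusted p = 0.000881). Psmd5 (ENSMUSG00000026869, chr2:34849734-34874968, minus strand) ranged over 37.1 to 43.4 CPM (median 40.0) on LPD and 46.0 to 48.2 CPM (median 46.9) on SPD. Here every LPD liver was below every SPD liver, and the log2 fold change was -0.22 ± 0.047 (adjusted p = 0.00142). Psmd10, known as gankyrin, had 10.4 ± 0.950 CPM on LPD and 12.1 ± 1.71 CPM on SPD and was not called (-0.22 ± 0.099, adjusted p = 0.0938). The core chaperones Psmg1 to Psmg4, which build the alpha ring, were not called either, with log2 fold changes between -0.093 (Psmg2) and 0.25 (Psmg3, adjusted p = 0.0648). The interval of Psmg1 was -0.052 to 0.22, within 1.25-fold either way, while those of Psmg2 (-0.33 to 0.14), Psmg3 (0.031 to 0.47) and Psmg4 (-0.42 to 0.26) passed it.

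The activators that open the core without ubiquitin fell in part: of 4 tested, 2 were called lower (against 19.2% of all genes) and none higher, with a median log2 fold change of -0.14. Psme1, the PA28 alpha subunit (ENSMUSG00000022216, chr14:55578123-55581529, plus strand), ranged over 76.7 to 87.0 CPM (median 79.5) on LPD and 85.9 to 105 CPM (median 93.1) on SPD. The diets overlap slightly, SPD replicate 6 was the highest, and the log2 fold change was -0.23 ± 0.058 (adjusted p = 0.00526), or -0.20 (adjusted p = 0.0133) without SPD replicate 6 and -0.19 (adjusted p = 0.0799) with the SP1 and LP4 libraries alone. Its partner Psme2, 5911 bases away, ranged over 47.1 to 51.5 CPM (median 49.2) on LPD and 42.8 to 64.1 CPM (median 52.8) on SPD, with a log2 fold change of -0.095 ± 0.074 that was not called (adjusted p = 0.330). Psme4, the nuclear activator PA200 (ENSMUSG00000040850, chr11:30771726-30880361, plus strand), ranged over 98.7 to 118 CPM (median 112) on LPD and 119 to 129 CPM (median 126) on SPD. The highest LPD liver stood just under the lowest SPD liver, LPD replicate 1 was the lowest of all, and the log2 fold change was -0.18 ± 0.054 (adjusted p = 0.0148). With LPD replicate 1 moved to SPD, the log2 fold change of Psme4 was -0.11 (adjusted p = 0.258). Psme3 had 0.089 ± 0.048 (adjusted p = 0.154). The inhibitor Psmf1, also called PI31, ranged over 35.8 to 38.7 CPM (median 37.7) on LPD and 30.8 to 39.9 CPM (median 35.4) on SPD, with a log2 fold change of 0.10 ± 0.060 that was not called (adjusted p = 0.194).

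Over the family, 7 of the 47 tested members (14.9%, against 19.9% of all genes) had LPD and SPD livers that did not overlap. In 2 of them LPD was above (Psmd9 and Psmc2, against 10.2% of all genes) and in 5 it was below (Psmd8, Psmb5, Psmd5, Psme4 and Psmb9, against 9.73%). The non-ATPase genes of the cap held calls in both directions, as with Psmd3 and Psmd8 in the lid. The median deviation of the tested members from the SPD mean ran over -0.080 to 0.055 on the log2 scale in the LPD livers and -0.043 to 0.072 in the SPD livers.

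How a gene was counted bears on a few of these values, and neither the counting program nor its use of strand is stated in the sources used here. Psmb9 shares 212 exon bases (5.79% of its exons) with Tap1 on the opposite strand, and Psmd9 shares 1849 (25.5%) with the antisense gene Gm26745. Also on opposite strands, Psmb8 shares 498 with Gm20496, Psmb7 shares 405 with Nek6 and Psma5 shares 60 with 1700010K24Rik. Likewise, Psmd3 shares 17 with Gm12356 and Psme1 shares 14 with Emc9. Without strand, the reads of these partners cannot be told apart from those of the members. Psmb5 shares 109 exon bases (12.1%) with Mir686 on the same strand, where strand does not separate them. Values that are not whole, which estimated counts give where reads are divided between genes, occurred in 11 members and made up 14.6% of the members' values. Of the called members, Psmb7 had them in 12 libraries, Psmc2 in 9, Psmd5 in 5, Psmb5 in 2 and Psmb9 in 1. Psme2 and Psme2b, which were not called or not tested, had them in 12 each.

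The rest of the ubiquitin and proteasome system was read through lists drawn up with the members. Of 10 ubiquitin genes and E1 enzymes, 1 was called higher and 2 lower (against 20.7% and 19.2% of all genes), with a median log2 fold change of 0.0023. Rps27a, a ribosomal protein gene fused to ubiquitin, had a log2 fold change of 0.35 ± 0.065 (adjusted p = 0.000631) and Sae1, the SUMO E1 subunit, -0.32 ± 0.084 (adjusted p = 0.00661). Ubb, a polyubiquitin gene, had a log2 fold change of -0.014 and was not called (adjusted p = 0.907). Of 19 tested proteasome-associated factors outside the Psm names, 7 were higher and 5 lower (against 20.7% and 19.2% of all genes), with a median of -0.0021. Rad23b, a shuttle that carries ubiquitinated proteins to the proteasome, had a log2 fold change of 0.30 ± 0.052 (adjusted p = 0.000293), and Ipo9, an import factor for proteasomes, had -0.28 ± 0.047 (adjusted p = 0.000294). Pomp, the chaperone that completes the core, had 86.6 ± 4.53 CPM on LPD and 94.8 ± 1.97 CPM on SPD (-0.13 ± 0.046, adjusted p = 0.0327), a call lost at values up to 0.0771 without LPD replicate 1, 3, 4 or 6 or SPD replicate 1, 2 or 4.

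Of 22 tested genes of p97 and ER-associated degradation, the route that pulls misfolded proteins out of the endoplasmic reticulum for the proteasome, 8 were higher and 1 was lower (against 20.7% and 19.2% of all genes). Herpud1, a scaffold of that route, had 814 ± 54.0 CPM on LPD and 355 ± 8.02 CPM on SPD (log2 fold change 1.196 ± 0.056, adjusted p = 3.13e-09), and Derl1, part of its membrane channel, had 0.40 ± 0.055 (adjusted p = 4.71e-05). The list's median log2 fold change was 0.11, beside -0.017 for the proteasome members and -0.00059 for all genes.

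NRF1, encoded by Nfe2l1, is the factor known to raise proteasome genes when proteasome activity falls short, and NRF2, encoded by Nfe2l2, does so under oxidative stress. Of 11 genes in the list of their control, 5 were higher and 3 lower (against 20.7% and 19.2% of all genes), with a median log2 fold change of 0.18. Nfe2l1 averaged 223 ± 13.5 CPM on LPD and 178 ± 13.8 CPM on SPD, a log2 fold change of 0.33 ± 0.061 (adjusted p = 0.000651). Nfe2l2 went the other way, with 67.0 ± 4.91 CPM on LPD and 95.1 ± 10.8 CPM on SPD, a log2 fold change of -0.50 ± 0.075 (adjusted p = 9.41e-05). The repressor Bach1, which competes with NRF2 for the same elements, had 0.69 ± 0.068 (adjusted p = 2.45e-06). For both factors and for Bach1, the LPD and SPD livers did not overlap. These are mRNA levels, and NRF1 and NRF2 are known to be controlled largely as proteins, which were not measured.

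Of 25 genes of MHC class I processing and interferon response, a list that also holds Psmb8, Psmb9, Psmb10, Psme1 and Psme2, 6 were higher and 7 lower (against 20.7% and 19.2% of all genes), with a median log2 fold change of -0.00028. Erap1, which trims peptides in the endoplasmic reticulum, had 0.36 ± 0.053 (adjusted p = 8.13e-05), and the class I gene H2-T23 had 0.27 ± 0.053 (adjusted p = 0.000843). B2m, the light chain of MHC class I, had -0.21 ± 0.060 (adjusted p = 0.0131), and Tap1, next to Psmb9, had -0.30 ± 0.11 (adjusted p = 0.0425), both chosen after their values were seen. The Tap1 call was lost without SPD replicate 6 (-0.18, adjusted p = 0.0820), and also without LPD replicate 1, 2, 3, 4 or 5 or SPD replicate 2 or 3. The interferon-induced genes Isg15 and Igtp, also chosen after their values were seen, were called higher, at 0.56 and 0.53, while Psmb8, Psmb9 and Psme1 of the same list were called lower.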

How the data were processed

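Liver RNA of 12 mice, 6 per diet, was measured. The labels' protocols give TRIzol extraction, DNase I and an Illumina TruSeq kit. Per the submitters' processing notes, the authors used TopHat and DESeq2 with mm10, in roles and versions not stated. No source used here states how reads were counted, by strand or where shared between genes. The authors deposited estimated counts per gene, not scaled between libraries, of which 17.1% to 18.9% of nonzero values per library were not whole. The members, gene lists and tests were chosen with earlier results of these data known.

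Counts were rounded and tested in R 4.3.3 with edgeR 4.0.16 (filterByExpr, minimum count 10 and total 15; TMM; quasi-likelihood F test of diet alone; Benjamini-Hochberg over 13768 genes; called at an adjusted p under 0.05). The SE is the absolute log2 fold change over the square root of F, and fold changes are LPD over SPD. CPM used TMM-scaled totals. TPM used the deposited length column. Coordinates come from GENCODE M21 (GRCm38), where all 49 members were found, and promoters from RefSeq (GRCm38.p6), where 41 were. The 3 subunit ratios were tested by exact permutation, with 95% intervals from the shifts the test does not reject. Within each group of genes up to 3 called members per direction with the smallest adjusted p, and a fixed set of catalytic and regulatory genes, were named with values in each diet, and up to 2 called genes of each list. The script for calls was tested on simulated data. Alternatives were other scalings (DESeq2 1.42.0 size factors, upper quartile), filters, the DESeq2 Wald test, limma-voom (limma 3.58.1) and a replicate block. Further alternatives were each library left out, LPD replicates 2 and 5 left out together, LPD replicate 1 moved to SPD, and libraries with codes SP1 and LP4 alone. The marker lists for sinusoidal endothelium and cholangiocytes had 0 of 4 genes called each by edgeR (against 39.9% of all genes). That for stellate cells had 1 lower of 4 (against 19.2%). Each sample is a separate liver, and no 2 libraries of a diet agreed within sampling noise. Intervals and floors cover counting error only where they rest on counts of 1 library. Values of some single genes in the lists are not reported here.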

Additional observations from a re-analysis of the deposited data

Results flagged for a closer look

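Some single livers stood far from the other 5 of their diet, by the gap to the nearest liver as a share of the range. Of 132 groups of 6 livers examined, 12 were marked, and 5 of the 12 came from SPD replicate 6. Chance marks about 1 in 20 of independent groups, but these were not independent. They hold Tap1 and B2m, chosen after their values were seen, and ratios of genes that were also examined singly. The count of marks is therefore no test of an excess. That liver had 27.3 CPM of Psmb8, against 16.0 to 19.1 CPM in the other SPD livers, 15.99 CPM of Psmb9, against 7.60 to 10.6 CPM, and 23.9 CPM of Tap1, against 15.1 to 16.7 CPM. Its log2 ratio of Psmb8 to Psmb5 was -1.74, against -2.59 to -2.30, and that of Psmb9 to Psmb6 was -2.40, against -3.52 to -3.13. Its immune cell marker sums were also the highest of all livers, as given with the inducible subunits.

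LPD replicate 5 had a log2 ratio of Psmb9 to Psmb6 of -4.44, against -3.83 to -3.55 in the other LPD livers, and LPD replicate 2 a log2 ratio of Psmb10 to Psmb7 of -3.08, against -2.66 to -2.49. LPD replicate 2 also had 203 CPM of Psmd2, against 176 to 186 CPM, and LPD replicate 4 had 984 CPM of B2m, against 1090.2 to 1129 CPM. SPD replicate 1 had 84.6 CPM of Psma2, against 76.3 to 78.7 CPM, and 64.5 CPM of Psma5, against 53.9 to 57.5 CPM. SPD replicate 2 had 33.6 CPM of Bach1, against 30.1 to 31.4 CPM.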

How the results depend on the processing

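Of the 14 called members, Psmb5, Psmd3, Psmd5, Psmd8 and Psmd9 kept their calls in all 22 alternatives, Psmb9, Psmc2, Psme1 and Psme4 in 21 each, Psmb8 in 20, Psma5 in 15, Psma1 and Psmb7 in 13 each and Psmd14 in 6. The libraries carry codes SP1 or SP2 on SPD and LP4 or LP5 on LPD, whose meaning the labels do not give. With the SP1 and LP4 libraries alone, 4 per diet, 1827 genes were higher and 1693 lower, and 5 members were lower. In that fit 7 of the 14 calls were lost. These were Psmb9 (-0.34, adjusted p = 0.0569), Psmc2 (0.175, 0.0534), Psme1 (-0.188, 0.0799) and Psmb7 (-0.178, 0.102). The others were Psmd14 (-0.135, adjusted p = 0.131), Psma5 (-0.135, 0.196) and Psma1 (-0.112, 0.246). The log2 fold changes of Psmc2, Psmb7 and Psmd14 were no smaller in size than with all livers. With no filter on low counts, 7 members were lower. With 1 liver left out, the count of lower members ran over 7 to 11 and of higher members over 3 to 4. Changes of sign occurred only in values that were not called: Psmb6 had -0.0016 without LPD replicates 2 and 5, Ubb ran over -0.0745 to 0.0388 with 1 liver left out, the Psmb8 to Psmb5 ratio over -0.0054 to 0.165 and the Psmb10 to Psmb7 ratio over -0.0333 to 0.0941. The replicate numbers do not pair the livers: same-numbered deviations correlated at -0.083 to 0.11, and 1 of 6 pairs correlated best with its own number. Under a replicate block, 14 members were called, beside 38% of all genes. Of these members 13 were shared, with Psmd14 lost and Psma8 gained (-0.98, adjusted p = 0.00786). Of the members not called, Psma8, Psmg2, Psmg3, Psmg4 and Psmd10 had intervals that pass 1.25-fold, and the part of depth in this was not tested. Where no alternative's construction shows it, the cause was not tested.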
